A study of Mus musculus with 22 samples.

Results

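The 8 genes described here belong to glucocorticoid signalling and metal binding and were followed in mouse skin fibroblasts after surgery. They are Nr3c1 (the glucocorticoid receptor), Hsd11b1 (the enzyme that activates glucocorticoid inside the cell), the receptor targets Tsc22d3, Zbtb16, Fkbp5 and Sgk1, and the metallothioneins Mt1 and Mt2. They were taken by symbol from the count table, where each of the 8 matched 1 of 55414 Ensembl identifiers, and all 8 had enough counts to be among the 17554 genes tested. The design compares fibroblasts of expanded skin with those of operated, unexpanded skin over the first days. All mice had the same back-skin incision and a path opened under the skin. EXP mice then received a hydrogel that swells under the skin (an expander), and CTRL mice received none. On day 1 there were 4 CTRL and 5 EXP libraries, on day 2 there were 3 of each, and on day 4 there were 4 CTRL and 3 EXP, which makes 22 libraries in 6 groups. Fibroblasts had been sorted as living CD34+ PDGFRα+ cells after removal of cells with CD31, CD45, CD117 or EpCAM. The labels used here give no strain, age or sex, and nothing in them says whether replicates came from separate animals, so the p-values below measure the spread between these libraries only.

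Glucocorticoid hormones are made by the adrenal gland and enter cells freely. Inside the cell, 11β-hydroxysteroid dehydrogenase type 1, the product of Hsd11b1, turns the inert 11-keto form into active hormone, which binds the receptor held in a chaperone complex. The bound receptor moves to the nucleus and raises the transcription of target genes such as Tsc22d3, Zbtb16, Fkbp5 and Sgk1. Metallothioneins are small cysteine-rich proteins that bind zinc and copper, and their genes are induced by metals through the zinc sensor MTF1, by oxidative stress, by inflammatory cytokines and by glucocorticoids. In skin, glucocorticoids restrain inflammation and the growth and matrix production of fibroblasts.

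Library totals lay between 21461294 and 30210204 counts. Levels are given in CPM, which are counts divided by the library total after TMM, a scaling that evens out differences in composition between libraries. Among markers of the sort, Pdgfra was at 227 CPM or more and Cd34 at 217 CPM or more in every library, while Ptprc (CD45) stayed at or below 0.243 CPM, Epcam at or below 2.09 CPM and Pecam1 (CD31) at or below 3.68 CPM. Of the other blood-cell genes, Csf1r reached 158.2 CPM, Cd3e 28.9 CPM and Cd68 24.9 CPM, whereas S100a8 and Lyz2 reached at most 4.74 and 4.37 CPM. S100a9 and Adgre1 reached at most 0.594 and 0.236 CPM, and the 8 genes of that list summed to 37.1 to 165 CPM. The 8 fibroblast genes, mostly collagens, summed to 210927 to 284314 CPM in CTRL against 94115 to 171284 CPM in EXP on day 1, to 328744 to 408884 against 68799.96 to 171571 CPM on day 2, and to 267581 to 369805 against 83672 to 280747 CPM on day 4. The arms thus did not overlap in this sum on days 1 and 2, and its part in the results below was not tested. Of the other marker lists, the 6 adipocyte genes summed to 3.06 to 702 CPM in the day 4 EXP libraries and to 9.92 to 129.7 CPM in those of day 2, against at most 29.3 CPM in any other group, and the 5 endothelial genes, mostly Tek, to 22.9 to 52.9 CPM in the day 4 EXP libraries. Lists lower in EXP on day 2 included pericyte and smooth muscle, mostly Kcnj8 (46.7 to 53.2 CPM in CTRL, 11.8 to 25.4 CPM in EXP). The keratinocyte (9.86 to 38.7, 5.55 to 6.93), blood cell (114 to 165, 66.1 to 96.0) and skeletal muscle (0.896 to 2.09, 0.198 to 0.472) lists were also lower. The melanocyte list, mostly Mlana, was higher in EXP on that day (5.39 to 13.5 CPM in CTRL, 15.3 to 37.0 CPM in EXP). So was the endothelial list (0.199 to 0.731 CPM in CTRL, 1.89 to 7.40 CPM in EXP). On day 1 the adipocyte list was lower in EXP (0.593 to 29.3 CPM in CTRL, 0.0637 to 0.365 CPM in EXP). Apart from the groups, 192 genes split the libraries into a high side (on day 1, 3 CTRL and 2 EXP, and on day 4, 2 CTRL) and a low side that held the rest. These genes were picked by a correlation above 0.9 with Rnf10 after group means were removed. The cut was set at the largest gap in their mean log2 CPM, between 4.13 and 4.83, so this rule always gives 2 sides. The labels name no batch that matches this split. Results on the 8 members that rest on days 1 and 4 were therefore also computed within 1 side, a choice made after the data had been seen. List results were not computed within a side.

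Between EXP and CTRL, 6 of the 8 genes passed the test on day 1, 1 on day 2 and 2 on day 4 (edgeR quasi-likelihood test, Benjamini-Hochberg adjusted p under 0.05). Of all tested genes, 28.6% passed on day 1, 13.4% on day 2 and 22.5% on day 4. Hsd11b1 was higher in EXP on days 1 and 2, Nr3c1 and Tsc22d3 were lower on days 1 and 4, and Zbtb16 was lower on day 1. Mt1 and Mt2 were higher on day 1, and for both the EXP effect differed between days. Fkbp5 and Sgk1 passed on no day. The median log2 fold change over all tested genes was 0.02 on day 1, 0.02 on day 2 and 0.03 on day 4.

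**Figure D1:**
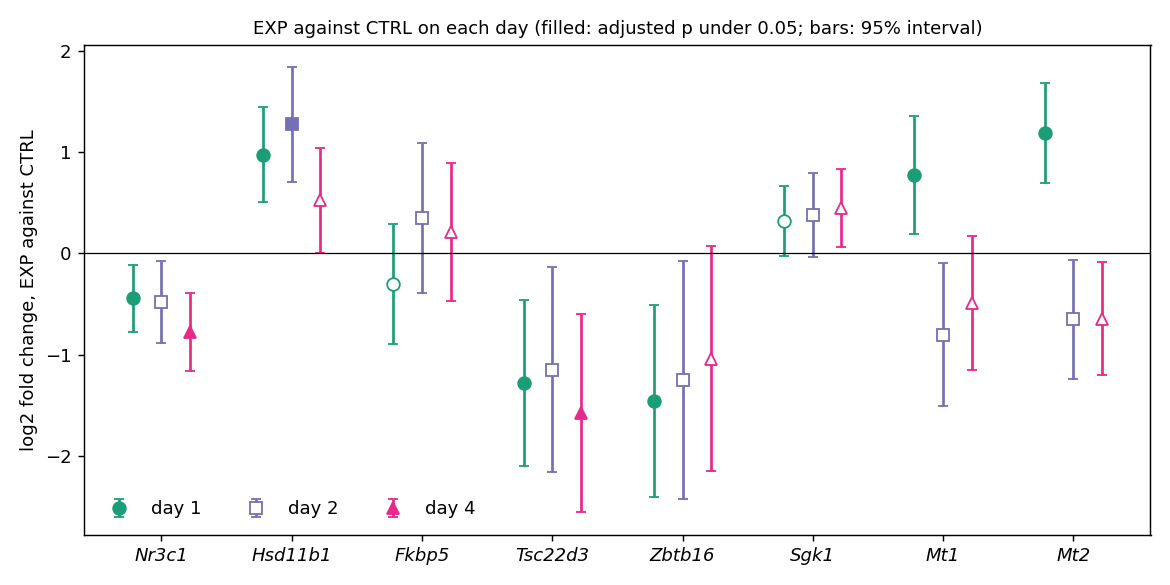
Log2 fold change of EXP against CTRL (vertical axis) for the 8 genes on day 1 (circles), day 2 (squares) and day 4 (triangles), with 95% intervals of the edgeR fit; filled symbols have an adjusted p under 0.05. Hsd11b1 lies above 0 and Nr3c1, Tsc22d3 and Zbtb16 lie below 0 on all 3 days, while Mt1 and Mt2 lie above 0 on day 1 and below 0 on days 2 and 4.

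The libraries of the arms did not overlap for 4 of the 8 genes on day 1, 6 on day 2 and 3 on day 4. Over all tested genes the share without overlap was 23.9% on day 1, 39.3% on day 2 and 25.5% on day 4. Nr3c1 and Tsc22d3 had every EXP library below every CTRL library on all 3 days. Hsd11b1 had every EXP library above every CTRL library on days 1 and 2, and Sgk1 on days 2 and 4. Mt2 was fully separated upward on day 1, and Mt1 and Mt2 were fully separated downward on day 2. On day 2, 20.9% of all tested genes had every EXP library above and 18.4% below, and on day 4 the shares were 13.8% and 11.8%. On day 1 they were 11.7% and 12.2%.

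**Figure D2:**
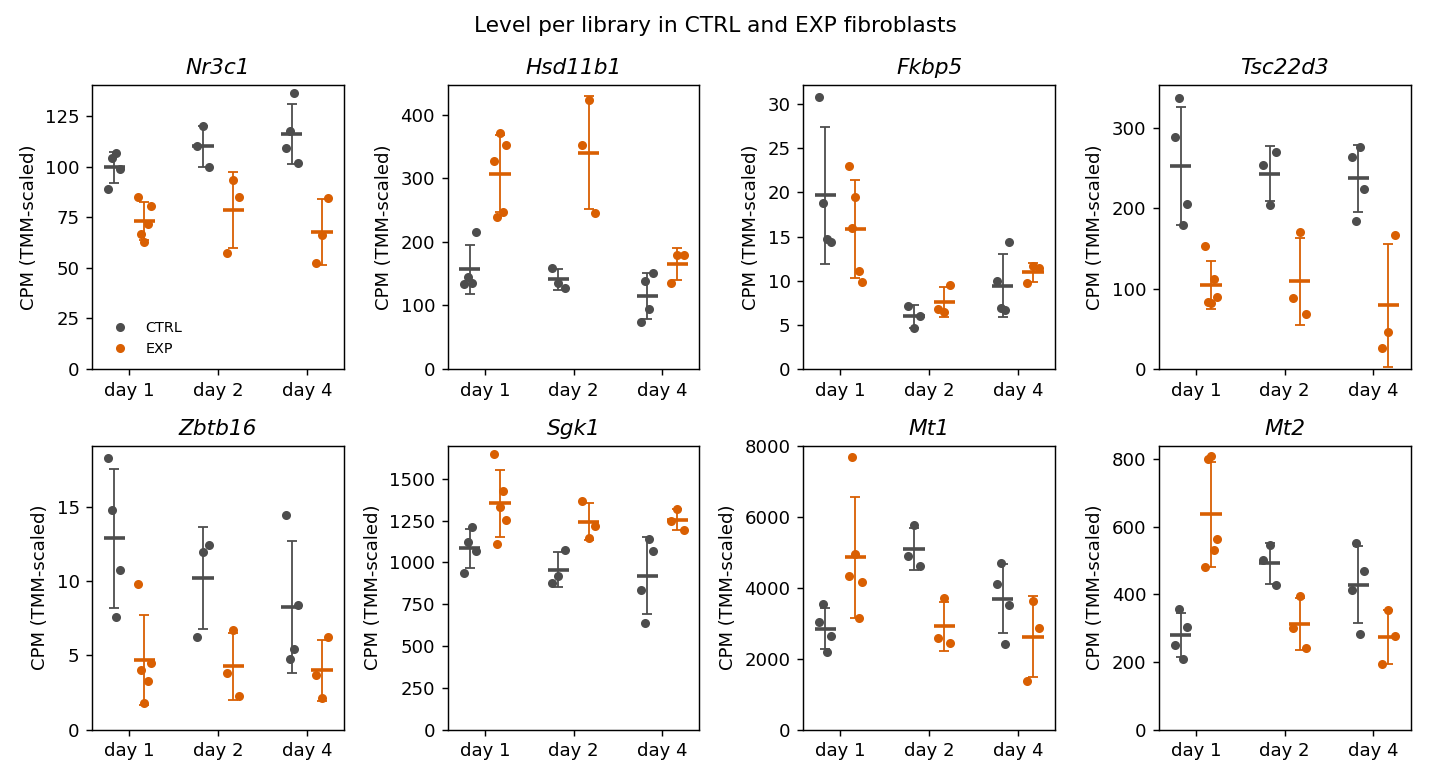
Level of each of the 8 genes in CPM (vertical axes, each from 0) in every library by day, with CTRL in grey and EXP in orange; long bars are group means and whiskers are ± 1 SD. Tsc22d3 in the 3 day 4 EXP libraries spreads from 25.7 to 167 CPM, the widest relative spread of any group plotted. The mean of Fkbp5 is higher on day 1 than on days 2 and 4 in both arms, with libraries of days 1 and 4 overlapping in each arm.

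Nr3c1 (ENSMUSG00000024431), the receptor that carries the hormone signal, was lower in EXP fibroblasts on days 1 and 4. Its day 1 levels were 89.2, 104, 107 and 99.2 CPM in CTRL and 85.4, 66.6, 62.9, 71.7 and 80.6 CPM in EXP. For day 4 the levels were 109.6, 118, 136 and 102 CPM in CTRL and 52.3, 66.3 and 84.6 CPM in EXP. Every EXP library of both days lay below the lowest CTRL library, by a narrow margin on day 1. The log2 fold change was -0.44 on day 1 (edgeR quasi-likelihood adjusted p 0.0380, SE 0.16) and -0.78 on day 4 (adjusted p 0.00575, SE 0.18), so that the fitted EXP level was 0.736 and 0.582 of the CTRL level. Day 2 had 110.2, 120.4 and 100.02 CPM in CTRL and 57.6, 93.5 and 85.1 CPM in EXP, again without overlap, but its difference of -0.49 (edgeR adjusted p 0.0972, SE 0.19) did not pass. The effect did not pass as different between days (edgeR adjusted p 0.569). The day 1 call was lost without CTRL replicate 2, 3 or 4 or EXP replicate 2, 3 or 4 of that day, with log2 fold changes of -0.45 to -0.39 and edgeR adjusted p of 0.0632 to 0.0947. It was also lost with library totals in place of TMM (-0.25, edgeR adjusted p 0.195), without the filter on low counts (-0.45, adjusted p 0.0811) and with the split added to the fit (-0.42, adjusted p 0.0616). On day 4 the gene was called in each of 7 fits that left out 1 library, with -0.97 to -0.62. In bulk RNA, fewer cells of a type and less RNA per cell cannot be told apart.

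Hsd11b1 (ENSMUSG00000016194), whose enzyme regenerates active glucocorticoid, was higher in EXP on days 1 and 2. CTRL libraries of day 1 held 133, 144, 135 and 215 CPM, and the EXP libraries held 327, 239.6, 371, 247 and 353 CPM. CTRL replicate 4 was the highest of its group, yet below every EXP library. The fitted level was 1.96-fold higher in EXP (log2 0.97, SE 0.22, edgeR quasi-likelihood adjusted p 0.00260). The difference was of similar size on day 2, where CTRL held 159, 135 and 128 CPM and EXP held 353, 423 and 246 CPM. The arms were again fully apart, with EXP 2.42-fold higher (log2 1.27, SE 0.27, edgeR adjusted p 0.00409). By day 4 the ranges met: CTRL held 73.4, 139, 94.9 and 152 CPM, and EXP held 136, 180.2 and 179 CPM. The lowest EXP library lay below 2 of the 4 CTRL libraries, and the log2 difference of 0.52 (edgeR adjusted p 0.129, SE 0.25) did not pass.

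Within the EXP arm the mean level of Hsd11b1 was 308 ± 60.7, 341 ± 88.9 and 165 ± 25.3 CPM on days 1, 2 and 4 (SD, n = 5, 3 and 3). The change over days within EXP passed the test (edgeR adjusted p 0.0209), as did 14.3% of all tested genes. Within CTRL the means were 157 ± 39.0, 141 ± 16.4 and 115 ± 36.8 CPM (SD, n = 4, 3 and 4), and the change did not pass (edgeR adjusted p 0.520). Nor did the difference of the EXP effect between days (edgeR adjusted p 0.343), so the fall within EXP is not shown to differ from the course in CTRL. The change within EXP was not called without EXP replicate 1 of day 4 (edgeR adjusted p 0.101) or without EXP replicate 2 of day 4 (adjusted p 0.0513). The calls on days 1 and 2 held in all 15 fits that left out 1 library of the day.

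H6pd makes the NADPH that drives the Hsd11b1 enzyme in the reductive, hormone-activating direction. It rose in EXP on all 3 days: from 56.8 ± 20.7 to 138 ± 11.1 CPM (SD, n = 4 and 5) in EXP on day 1, from 42.8 ± 10.2 to 122 ± 33.3 CPM (SD, n = 3 each) on day 2, and from 47.7 ± 22.7 to 97.4 ± 28.7 CPM (SD, n = 4 and 3) on day 4. The log2 fold changes were 1.29 (SE 0.28), 1.51 (SE 0.34) and 1.03 (SE 0.31), with edgeR adjusted p of 0.00194, 0.00621 and 0.0219. Nr3c2, the mineralocorticoid receptor, which also binds glucocorticoids, fell on each of the 3 days, by log2 changes of -1.86 (edgeR adjusted p 0.00249, SE 0.42), -1.71 (adjusted p 0.0318, SE 0.52) and -1.66 (adjusted p 0.0201, SE 0.49). Its levels were low throughout, at 3.69 to 5.78 CPM in the CTRL group means and 1.01 to 1.83 CPM in the EXP group means. Over all tested genes 2.50% were called higher on all 3 days and 1.78% lower. By day, the shares called higher and lower were 13.9% and 14.7% on day 1, 7.72% and 5.71% on day 2, and 12.8% and 9.66% on day 4. Of the 7 genes on the list of steroid metabolism and the mineralocorticoid receptor, 5 could be tested, and 1 rose and 1 fell on days 1 and 2. On day 4, 2 rose and 1 fell, the third called gene being Star, which brings cholesterol into mitochondria for steroid synthesis (log2 1.06, SE 0.34, edgeR adjusted p 0.0300), at 2.21 ± 0.813 CPM (SD, n = 3) in EXP. On day 2 no gene of the list was called lower, Nr3c2 included, with library totals or without CTRL replicate 1 or 2 or EXP replicate 1 or 3. On day 4 none was called lower without CTRL replicate 3 or EXP replicate 1 or 2, and none higher, H6pd included, without CTRL replicate 1 or 3 or EXP replicate 1.

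Tsc22d3 (ENSMUSG00000031431), which encodes the anti-inflammatory protein GILZ and is among the most sensitive glucocorticoid targets, was lower in EXP on days 1 and 4. CTRL libraries of day 1 held 289, 337, 179 and 205 CPM, and EXP libraries held 153, 83.3, 82.5, 112 and 89.3 CPM. Day 4 had 264, 184, 277 and 224 CPM in CTRL and 25.7, 45.5 and 167 CPM in EXP. On both days all EXP libraries were below all CTRL libraries, and on day 4 EXP replicate 3 stood close to the CTRL range while the other two were far below it. The log2 fold change was -1.28 on day 1 (edgeR quasi-likelihood adjusted p 0.0177, SE 0.39) and -1.58 on day 4 (adjusted p 0.0203, SE 0.46). On day 2 the levels were 254, 204 and 271 CPM in CTRL and 88.9, 171 and 68.5 CPM in EXP. They did not overlap, and the difference of -1.15 (edgeR adjusted p 0.117, SE 0.48) did not pass.

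Single libraries moved these values for Tsc22d3. Without EXP replicate 3 of day 4 the day 4 log2 fold change was -2.74 (edgeR adjusted p 7.96e-05), and the effect then passed as different between days (adjusted p 0.0409, against 0.885 with all libraries). Without EXP replicate 1 it was -1.17 (adjusted p 0.0805) and without EXP replicate 2 it was -1.32 (adjusted p 0.0946). The day 1 call was lost without CTRL replicate 2 (-1.11, edgeR adjusted p 0.0588), and the day 2 difference passed without EXP replicate 2 (-1.63, adjusted p 0.04998) and with day 2 fitted alone (-1.16, adjusted p 0.0353). Without the filter on low counts the calls on day 1 (-1.29, edgeR adjusted p 0.0570) and day 4 (-1.55, adjusted p 0.0666) were both lost. The adipocyte list summed to 3.06, 242 and 702 CPM in EXP replicates 1, 2 and 3 of day 4, in the same order as the Tsc22d3 level. The fibroblast list summed to 83672, 163135 and 280747 CPM in these libraries, again in that order. In the EXP libraries of days 1 and 2 neither list followed the order of Tsc22d3. On day 2, EXP replicates 1, 2 and 3 held 88.9, 171 and 68.5 CPM of Tsc22d3. Their adipocyte sums were 129.7, 9.92 and 12.9 CPM, and their fibroblast sums 68799.96, 171571 and 134248 CPM. Among the adipocyte genes, Adipoq reached 52.9 CPM and Plin1 5.86 CPM, both in EXP replicate 3. The part of these lists in the Tsc22d3 level was not tested.

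Zbtb16 (ENSMUSG00000066687), a zinc finger repressor also called PLZF and a strong glucocorticoid target, fell in EXP on day 1. Its levels there were 18.3, 14.8, 7.62 and 10.8 CPM in CTRL and 9.82, 4.04, 1.82, 3.25 and 4.49 CPM in EXP. EXP replicate 1 reached into the CTRL range and the other 4 EXP libraries lay below it. The log2 fold change was -1.46 (edgeR quasi-likelihood adjusted p 0.0187, SE 0.45). Means of CTRL against EXP were 10.2 ± 3.46 against 4.28 ± 2.26 CPM on day 2 (SD, n = 3 each) and 8.26 ± 4.43 against 4.01 ± 2.05 CPM on day 4 (SD, n = 4 and 3). The arms overlapped on both days, and the log2 differences of -1.26 (edgeR adjusted p 0.141, SE 0.55) and -1.04 (adjusted p 0.159, SE 0.52) did not pass. Without CTRL replicate 1 the day 1 value was -1.24 (edgeR adjusted p 0.0669).

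Fkbp5 (ENSMUSG00000024222), a receptor co-chaperone that is induced by glucocorticoid and lowers the receptor's affinity for it, showed no difference between arms that passed. Day 1 levels were 30.9, 18.8, 14.7 and 14.4 CPM in CTRL and 23.0, 16.0, 19.5, 11.1 and 9.85 CPM in EXP. Day 2 levels were 7.17, 4.65 and 6.02 CPM in CTRL and 6.73, 6.41 and 9.52 CPM in EXP. Day 4 levels were 9.92, 6.86, 6.62 and 14.4 CPM in CTRL and 9.71, 11.6 and 11.5 CPM in EXP. The arms overlapped on every day, and in both arms every library of day 2 lay below every library of day 1. The log2 fold changes of EXP against CTRL were -0.31 (95% interval -0.90 to 0.29), 0.34 (-0.40 to 1.09) and 0.21 (-0.47 to 0.89), with edgeR quasi-likelihood adjusted p of 0.439, 0.563 and 0.673.

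Within CTRL the Fkbp5 level changed over days, with log2 differences from day 1 of -1.72 on day 2 and -1.06 on day 4 (edgeR adjusted p 0.0380). Only 0.291% of all tested genes changed over days within CTRL. In the EXP arm the corresponding differences were -1.07 and -0.54 (edgeR adjusted p 0.0584). The CTRL change held without CTRL replicate 4 of day 1 and without CTRL replicate 3 or 4 of day 4. It was lost in the other 8 fits that left out 1 CTRL library (replicates 1, 2 or 3 of day 1, any replicate of day 2, or replicate 1 or 2 of day 4), with edgeR adjusted p of 0.0537 to 0.182, and in the fit that took the split as a covariate (adjusted p 0.131). The EXP change passed without EXP replicate 4 (adjusted p 0.0374) or EXP replicate 5 (adjusted p 0.0352) of day 1.

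Sgk1 (ENSMUSG00000019970), a kinase that regulates ion channels and cell survival and is induced by glucocorticoid, serum and osmotic stress, had positive log2 differences that passed on no day. The promoter window with a receptor motif is shown here, since the full palindromic glucocorticoid response element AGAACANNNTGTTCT was found in 3 of 32851 promoter windows of the same length (0.00913%), and 1 of these is a window of Sgk1. RefSeq (build GRCm38.p6) gives 6 windows for this gene, each from 250 bases before to 50 after an annotated start. The window with the element is at chr10:21993640-21993939 on the plus strand, and capitals mark the element, which begins at position -189 relative to the start, and a further half-site TGTTCT upstream of it.
Sgk1: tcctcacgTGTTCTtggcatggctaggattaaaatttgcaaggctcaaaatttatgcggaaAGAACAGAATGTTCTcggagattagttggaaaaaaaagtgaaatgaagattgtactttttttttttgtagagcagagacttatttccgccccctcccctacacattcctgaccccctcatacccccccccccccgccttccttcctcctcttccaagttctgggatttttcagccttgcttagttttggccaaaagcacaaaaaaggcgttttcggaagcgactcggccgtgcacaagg
The half-site TGTTCT (either strand, also counted within the full element) was in 19% of all windows. It was in 3 of the 6 Sgk1 windows and in 1 of the 3 windows of Tsc22d3, and it was not found in the windows of Hsd11b1, Fkbp5, Mt1 or Mt2. A match describes the letters only, and these windows were not tied to the counts.

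Sgk1 levels on day 1 were 936, 1120.1, 1213 and 1068 CPM in CTRL and 1647, 1108, 1329, 1427 and 1252 CPM in EXP. For day 2 they were 877, 918 and 1075 CPM in CTRL and 1365, 1147 and 1219 CPM in EXP. The last day had 836, 637, 1139 and 1069.6 CPM in CTRL and 1249, 1319 and 1195 CPM in EXP. EXP replicate 2 of day 1 fell inside the CTRL range, and on days 2 and 4 all EXP libraries were above all CTRL libraries. The log2 differences were 0.32 (95% interval -0.03 to 0.66), 0.38 (-0.04 to 0.80) and 0.45 (0.06 to 0.83), with edgeR quasi-likelihood adjusted p of 0.148, 0.216 and 0.0819. Day 4 passed without CTRL replicate 3 (0.57, edgeR adjusted p 0.0473). Of 8 alternative fits of day 4 it passed in 2, with the library split as a covariate and with library totals. With libraries scaled by their totals instead of TMM, Sgk1 passed on all 3 days, at 0.51 (adjusted p 0.0379), 0.86 (adjusted p 0.00772) and 0.78 (adjusted p 0.00728), where the median over all genes was itself 0.21, 0.49 and 0.36.

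The metallothioneins Mt1 (ENSMUSG00000031765) and Mt2 (ENSMUSG00000031762) were the only members whose EXP effect passed as different between days. Their promoter windows are shown because both hold several copies of the core of the metal response element, the sequence that MTF1 binds. RefSeq (build GRCm38.p6) places the Mt1 window at chr8:94178839-94179138 and the Mt2 window at chr8:94172368-94172667, both on the plus strand and from 250 bases before to 50 after the start. The cores searched were TGCACNC and TGCGCNC on both strands, and capitals mark each match.
Mt1: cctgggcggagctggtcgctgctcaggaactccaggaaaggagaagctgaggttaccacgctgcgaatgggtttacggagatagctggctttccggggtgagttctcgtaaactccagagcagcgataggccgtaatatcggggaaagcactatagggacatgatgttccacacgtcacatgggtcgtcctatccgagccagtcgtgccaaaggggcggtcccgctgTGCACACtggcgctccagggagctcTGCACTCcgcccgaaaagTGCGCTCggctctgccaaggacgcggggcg
Mt2: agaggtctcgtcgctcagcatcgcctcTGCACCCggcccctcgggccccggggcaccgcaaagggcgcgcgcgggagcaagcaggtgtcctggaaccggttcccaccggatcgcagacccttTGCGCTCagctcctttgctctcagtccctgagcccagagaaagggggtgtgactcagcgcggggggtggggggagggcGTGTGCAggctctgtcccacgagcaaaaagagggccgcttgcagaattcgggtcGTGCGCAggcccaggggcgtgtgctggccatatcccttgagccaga
The Mt1 window held 3 cores and the Mt2 window 4. Of all 32851 windows, 25.7% held at least 1 core of either kind, 7.11% at least 2 and 0.517% at least 4. The share with at least 3 was not counted. One core was found in the window of Hsd11b1 and 1 in the Sgk1 windows, and none in those of Fkbp5 or Tsc22d3.

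Mt2 on day 1 was at 251, 357, 208 and 303 CPM in CTRL and at 480.0, 801, 809, 530.3 and 564 CPM in EXP. All 5 EXP libraries were above all CTRL libraries, and the fitted level was 2.28-fold higher (log2 1.19, SE 0.23, edgeR quasi-likelihood adjusted p 7.98e-04). On day 2 the order was the opposite, with 501, 547 and 428 CPM in CTRL and 301, 396 and 242 CPM in EXP. Day 4 had 413, 553, 283 and 468 CPM in CTRL and 193, 353 and 277 CPM in EXP, with overlap. The differences of -0.65 on day 2 (edgeR adjusted p 0.124, SE 0.28) and -0.65 on day 4 (adjusted p 0.0790, SE 0.26) did not pass. The day 4 difference passed without CTRL replicate 3 (-0.80, edgeR adjusted p 0.0419), and that of day 2 passed with the day fitted alone (-0.66, adjusted p 0.0452). The EXP effect on Mt2 depended on the day (edgeR adjusted p 0.00257), as did that on 8.82% of all tested genes, and it was called in each of 22 fits that left out 1 library (adjusted p 0.00193 to 0.0105).

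Mt1 had the same order of arms with wider spread. Its day 1 levels were 3039.7, 3552, 2181 and 2636 CPM in CTRL and 4352, 7705, 4957, 3159 and 4161 CPM in EXP. EXP replicate 2 was far above the others, EXP replicate 4 lay inside the CTRL range, and the log2 fold change was 0.77 (edgeR quasi-likelihood adjusted p 0.0409, SE 0.28). On day 2, CTRL held 4910.4, 5782 and 4621 CPM and EXP held 2590.1, 3707 and 2461 CPM, fully apart. On day 4, CTRL held 4109, 4719, 2432 and 3525 CPM and EXP held 1374, 3648 and 2866 CPM, with overlap. The differences of -0.81 (edgeR adjusted p 0.114, SE 0.33) and -0.49 (adjusted p 0.266, SE 0.31) did not pass, although the first did with day 2 fitted alone (-0.81, adjusted p 0.0253). The effect on Mt1 passed as different between days (edgeR adjusted p 0.0373).

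Both Mt1 calls were close to the threshold and were lost when any 1 of several libraries was left out. The day 1 rise was not called without CTRL replicate 1, 3 or 4 or EXP replicate 2 or 3 of that day (log2 0.54 to 0.80, edgeR adjusted p 0.0634 to 0.129), nor without the filter on low counts (0.76, adjusted p 0.0606). The day-dependent effect was not called in 11 of 22 such fits (adjusted p 0.0519 to 0.0907), which left out CTRL replicates 1, 3 or 4 or EXP replicates 2 or 3 of day 1, CTRL replicates 1 or 2 or EXP replicates 1 or 3 of day 2, or CTRL replicates 2 or 4 of day 4. Within the EXP arm the Mt2 level changed over days, with log2 differences from day 1 of -1.03 on day 2 and -1.21 on day 4 (edgeR adjusted p 0.00292). The Mt1 differences of -0.74 and -0.89 did not pass (edgeR adjusted p 0.0671), except without EXP replicate 4 of day 1 (adjusted p 0.0350) or EXP replicate 2 of day 4 (adjusted p 0.0356). In CTRL the day 2 differences from day 1 were 0.84 for Mt1 (edgeR adjusted p 0.334) and 0.81 for Mt2 (adjusted p 0.221), the adjusted p covering all 3 days, and neither passed.

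**Figure D3:**
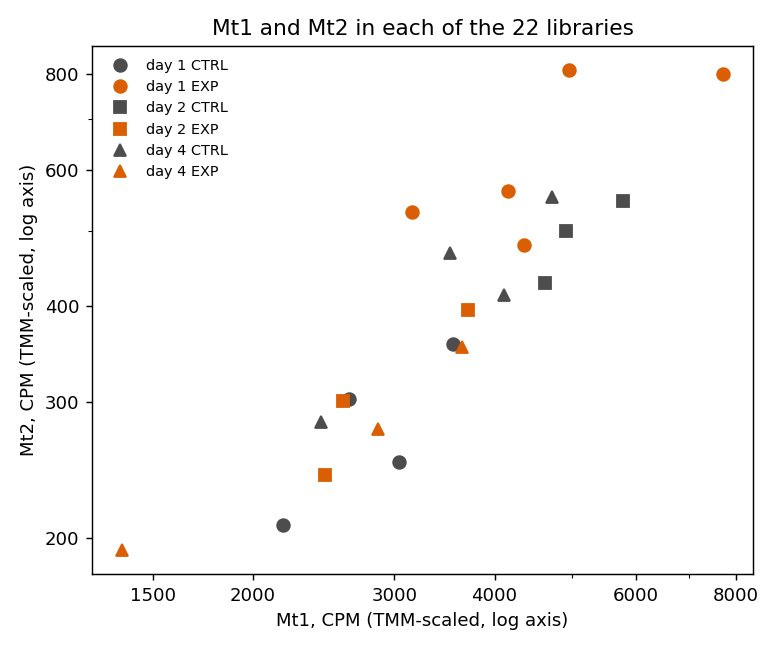
Mt2 against Mt1 in each of the 22 libraries, both in CPM on log axes; colour gives the arm and shape the day. All 5 day 1 EXP libraries (orange circles) lie at 480.0 CPM of Mt2 or more, above the 4 day 1 CTRL libraries (grey circles) at 208 to 357 CPM, whereas the day 2 EXP libraries (orange squares) lie below the day 2 CTRL libraries (grey squares) on both axes.

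Mt1 and Mt2 varied together across libraries. Pearson's r of their log2 CPM was 0.889 over the 22 libraries and 0.851 after group means were removed, values that share libraries and scaling. Mt1 alone took 0.181% to 0.782% of the counts of a library and ranked between 8 and 52 among all genes. The ratio of Mt1 to Mt2 counts on day 1 was 10.3 ± 1.41 in CTRL against 7.63 ± 1.67 in EXP (SD, n = 4 and 5), with overlapping libraries (8.71 to 12.1 against 5.96 to 9.62). It was 10.4 ± 0.523 against 9.38 ± 0.787 (SD, n = 3 each) on day 2, and 8.65 ± 0.988 against 9.26 ± 1.85 (SD, n = 4 and 3) on day 4. The principal transcripts, 549 and 511 bases long, are 62.7% identical when aligned, with a longest shared run of 20 bases. Mt2 shares exonic bases with the antisense gene Gm45774 in GENCODE M21, and since the counting is not stated to use strand, reads of these overlapping genes cannot be told apart. No other member overlapped another gene's exons there.

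Per kilobase of principal transcript the 8 genes covered a wide range of levels. In the CTRL libraries of day 1 the levels were 5195 ± 1064 CPM per kilobase for Mt1, 548 ± 126 for Mt2, 441 ± 47.2 for Sgk1, 128 ± 37.1 for Tsc22d3, 96.7 ± 24.01 for Hsd11b1, 15.5 ± 1.21 for Nr3c1, 5.10 ± 2.00 for Fkbp5 and 2.52 ± 0.912 for Zbtb16 (SD, n = 4 each). In this order the libraries of Mt2 and Sgk1 overlapped, as did those of Tsc22d3 and Hsd11b1, and the other neighbours did not. In the EXP libraries of day 1 Hsd11b1 was above Tsc22d3 in every library, at 189.5 ± 37.4 against 52.7 ± 15.1 CPM per kilobase (SD, n = 5 each).

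Among the 28 pairs of members, Mt1 with Mt2 had the highest correlation, followed by Nr3c1 with Tsc22d3 (r 0.840, and 0.574 with group means removed) and Tsc22d3 with Zbtb16 (0.788 and 0.593), over 22 libraries that share arm, day and scaling. Among the other pairs of targets, r was -7.58e-05 for Fkbp5 with Tsc22d3, 0.127 with Zbtb16 and 0.309 with Sgk1, and that of Sgk1 was -0.482 with Tsc22d3 and -0.389 with Zbtb16. Among 9791 candidates whose mean reached 5 CPM, those most like Tsc22d3 were Bmp4 (r 0.959, and 0.891 with group means removed), Zfp536 (0.951 and 0.862) and Fgf13 (0.951 and 0.870). Nr3c1 was most like Reck (0.934 and 0.798), Twsg1 (0.931 and 0.810) and Mertk (0.923 and 0.761). Hsd11b1 was most like Fst (0.883 and 0.510), Porcn (0.870 and 0.446) and Arpc1b (0.863 and 0.594). For Zbtb16 they were Dapk1 (0.808 and 0.508), Mib2 (0.799 and 0.507) and Pde12 (0.775 and 0.5003), and for Fkbp5 Nus1 (0.746 and 0.417), Tmem33 (0.743 and 0.231) and Ubfd1 (0.739 and 0.373). Sgk1 came with Me1 (0.853 and 0.807), Prok2 (0.839 and 0.757) and Mthfd1l (0.839 and 0.667). Mt1 came with Tmem11 (0.871 and 0.838), Slc7a1 (0.842 and 0.821) and Gm5616 (0.835 and 0.767), and Mt2 with Gpx1 (0.867 and 0.864), Serpina3e-ps (0.853 and 0.782) and Serpina3k (0.850 and 0.757). The similarities of Fkbp5, Hsd11b1 and Zbtb16 dropped most once group means were removed.

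A list of 20 other genes known to be induced by glucocorticoids was set beside the 4 targets. On day 1, 1 rose and 3 fell, on day 2 none rose and 5 fell, and on day 4 none rose and 12 fell. Over all tested genes 13.9% rose and 14.7% fell on day 1, 7.72% and 5.71% on day 2, and 12.8% and 9.66% on day 4. The median log2 fold change of the list was -0.13, -0.80 and -1.09 on the 3 days. On day 1 Ddit4, an inhibitor of mTOR signalling, rose from 12.1 ± 3.11 to 35.5 ± 18.2 CPM (SD, n = 4 and 5), a log2 fold change of 1.56 (edgeR adjusted p 0.00705, SE 0.40). Sesn1, a stress-induced regulator of mTOR signalling, and Rgcc, a cell-cycle regulator, fell on all 3 days. The log2 fold changes of Sesn1 were -0.83, -1.87 and -1.61 (SE 0.26, 0.33 and 0.31, edgeR adjusted p 0.0203, 0.00101 and 0.00175), and those of Rgcc were -0.95, -1.23 and -1.05 (SE 0.23, 0.29 and 0.27, adjusted p 0.00450, 0.00794 and 0.0108). Hif3a was also called lower on day 1, at 0.874 ± 0.626 against 0.0582 ± 0.111 CPM (SD, n = 4 and 5), the latter below the level of 3 counts, so no fold is given.

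Nfkbia, which encodes the inhibitor of NF-κB, fell on day 2 from 1972 ± 61.2 to 1235 ± 277 CPM (SD, n = 3 each; log2 -0.68, SE 0.20, edgeR adjusted p 0.0319). On day 4 the 3 genes with the smallest p were Klf9, Sesn1 and Per1. Klf9, a Krüppel-like factor, fell from 205 ± 41.5 to 82.9 ± 24.9 CPM (SD, n = 4 and 3; log2 -1.31, SE 0.24, edgeR adjusted p 0.00138). Per1, a repressor of the circadian clock, fell from 12.6 ± 3.90 to 4.02 ± 1.15 CPM (SD, n = 4 and 3; log2 -1.64, SE 0.32, edgeR adjusted p 0.00194). The other genes called on day 4 were Dusp1, Errfi1, Nfkbia, Cebpd, Anxa1, Arrdc2, Rgcc, Map3k6 and Rhob. Many of the list, Dusp1, Cebpd, Nfkbia, Per1 and Rhob among them, are also known to respond to serum, cytokines or tissue dissociation.

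**Figure D4:**
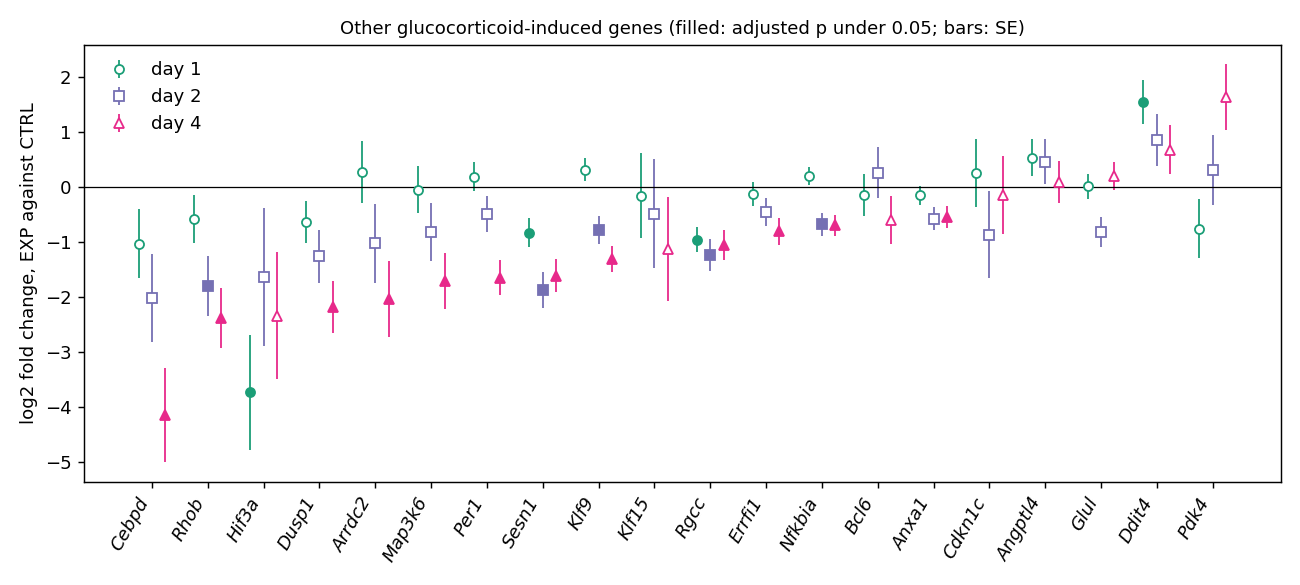
Log2 fold change of EXP against CTRL (vertical axis) for the 20 other glucocorticoid-induced genes on day 1 (circles), day 2 (squares) and day 4 (triangles), with bars of ± 1 SE; filled symbols have an edgeR adjusted p under 0.05. On day 4, 12 of the 20 are called and lie below 0, while Ddit4 on day 1 is the only gene called above 0. The fitted values of Hif3a rest on low levels, with the day 1 EXP mean below the level of 3 counts.

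The count of 12 on day 4 depended on the libraries and the scaling. It ran from 6 to 11 in fits that left out 1 library of the day, the lowest without EXP replicate 1, where the median was -0.89. With the split added to the fit 1 rose and 8 fell on day 4 and 8 fell on day 2, and the day 1 median was 0.05. With library totals in place of TMM 1 rose and 8 fell on day 4 with a median of -0.80, 1 fell on day 2 with a median of -0.35, and the day 1 median was 0.06. The median over all tested genes was then itself 0.36 on day 4, 0.49 on day 2 and 0.21 on day 1, against 0.03, 0.02 and 0.02 with TMM. The count on day 2 ran from 2 to 6 without 1 library. Of 9 immediate early and heat shock genes that respond to cell handling, 3 fell on day 1, 3 on day 2 and 4 on day 4, none rose, and 6, 6 and 5 did not pass. The shares of all tested genes that fell were 14.7%, 5.71% and 9.66%. With library totals 1, 1 and 2 of the 9 fell, as did 1732, 441 and 1018 of all 17554 tested genes. Their mean log2 CPM did not overlap between arms, at 9.56 to 9.81 in CTRL and 8.76 to 9.43 in EXP on day 1, 9.56 to 10.03 and 8.76 to 8.82 on day 2, and 8.997 to 9.76 and 8.34 to 8.84 on day 4. The part of these genes in the results on the glucocorticoid targets was not tested.

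Of the handling genes, Atf3, a stress-induced transcription factor, fell on each day, with log2 changes of -1.14 (SE 0.23), -2.37 (SE 0.29) and -0.78 (SE 0.26), and edgeR adjusted p of 9.20e-04, 6.03e-05 and 0.0380. Jun (-0.89, SE 0.25, edgeR adjusted p 0.0122) and Fos (-0.67, SE 0.25, adjusted p 0.0481) fell on day 1. Ier2 and Fosb fell on day 2 (-1.16 and -1.21, edgeR adjusted p 0.00370 and 0.0140). On day 4 Ier2 (-1.08, adjusted p 0.00333), Hspa1a (-1.23, adjusted p 0.0147) and Hspa1b (-1.25, adjusted p 0.0266) fell in the edgeR fit. Hspa1a and Hspa1b are near-identical copies whose reads the counting could split.

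Chaperones and cofactors of the receptor did not move one way. Of 10, 2 rose and 2 fell on day 1, 1 rose and 1 fell on day 2, and 1 rose on day 4. The shares of all tested genes that rose and fell were 13.9% and 14.7% on day 1, 7.72% and 5.71% on day 2, and 12.8% and 9.66% on day 4. Ppid, an immunophilin of the receptor complex, and Hsp90aa1, the stress-inducible HSP90, rose on day 1 (log2 0.84 and 0.51, SE 0.17 and 0.16, edgeR adjusted p 0.00128 and 0.0241). Fkbp4, the immunophilin that opposes Fkbp5 in the complex, fell on day 1 from 105 ± 8.70 to 49.97 ± 11.1 CPM (SD, n = 4 and 5; log2 -1.07, SE 0.20, edgeR adjusted p 5.28e-04). Stip1, which links HSP70 to HSP90, rose on day 2 from 42.6 ± 10.4 to 125 ± 18.2 CPM (SD, n = 3 each; log2 1.55, SE 0.21, edgeR adjusted p 1.66e-04) and on day 4 (log2 0.84, SE 0.19, adjusted p 0.00533). The coactivator Ncoa1 fell on days 1 and 2 (log2 -0.85 and -1.48, SE 0.27 and 0.34, edgeR adjusted p 0.0216 and 0.00641). The list medians were 0.26, 0.05 and -0.12, and with library totals in place of TMM they were 0.45, 0.53 and 0.23, where 4 rose and 1 fell on day 1 and 3 rose and 1 fell on day 2. Medians over all tested genes with library totals were themselves 0.21, 0.49 and 0.36. Of all tested genes, 3397 then rose and 1732 fell on day 1, and 4191 and 441 on day 2.

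Genes of zinc and copper handling were examined because metallothioneins store both metals. Of 17 tested, 3 rose and 2 fell on day 1, 2 rose and 2 fell on day 2, and 2 rose on day 4, with list medians of 0.12, -0.004 and -0.08. The shares of all tested genes that rose and fell were 13.9% and 14.7% on day 1, 7.72% and 5.71% on day 2, and 12.8% and 9.66% on day 4. With library totals in place of TMM the medians were 0.32, 0.46 and 0.23, and 4 rose and 1 fell on day 1, 6 rose on day 2 and 4 rose on day 4. That scaling moved all genes upward, with medians over all tested genes of 0.21, 0.49 and 0.36. Of all tested genes, 3397 then rose and 1732 fell on day 1, 4191 and 441 on day 2, and 4271 and 1018 on day 4. Slc39a14, a zinc and iron importer, rose from 152 ± 44.4 to 453 ± 114 CPM (SD, n = 4 and 5) on day 1 (log2 1.58, SE 0.26, edgeR adjusted p 1.61e-04) and from 146 ± 6.33 to 395 ± 147 CPM (SD, n = 3 each) on day 2 (log2 1.43, SE 0.31, adjusted p 0.00438). Its day 4 difference of 0.77 (edgeR adjusted p 0.0521, SE 0.28) did not pass. Slc39a8, a related importer, rose on days 1 and 4 (log2 1.42 and 1.90, SE 0.33 and 0.36, edgeR adjusted p 0.00329 and 0.00175). Mtf1, the zinc sensor that drives metallothionein transcription, rose on day 1 from 6.89 ± 0.975 to 10.2 ± 1.07 CPM (SD, n = 4 and 5; log2 0.57, SE 0.19, edgeR adjusted p 0.0325).

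Slc39a13, which moves zinc out of intracellular stores and is needed for connective tissue, fell on days 1 and 2. Its level went from 114 ± 10.9 to 52.4 ± 8.04 CPM (SD, n = 4 and 5) on day 1 (log2 -1.12, SE 0.13, edgeR adjusted p 6.47e-06), and the day 2 change was -0.63 (adjusted p 0.0101, SE 0.15). Slc39a7, a zinc transporter of the endoplasmic reticulum and Golgi, fell on days 1 and 2 (-0.63 and -0.68, SE 0.18 and 0.22, edgeR adjusted p 0.0118 and 0.0436). Slc39a6 rose on days 2 and 4 (0.49 and 0.50, SE 0.16 and 0.14, edgeR adjusted p 0.0388 and 0.0178). Among the list genes given with values here, Ncoa1, Nr3c2, Mtf1, Slc39a7, Slc39a13, Jun and Hspa1a share exonic bases with another gene in GENCODE M21, so part of their counts could come from that gene.

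The calls on the 8 members were also computed within 1 side of the library split. Among the day 1 libraries of the high side (3 CTRL and 2 EXP), Hsd11b1, Tsc22d3 and Mt2 passed, and Nr3c1 (-0.44, edgeR adjusted p 0.208), Zbtb16 (-1.02, adjusted p 0.187) and Mt1 (1.01, adjusted p 0.0646) kept their direction without passing. Among the day 4 libraries of the low side (2 CTRL and 3 EXP) none of the 8 passed, with Nr3c1 at -0.75 (edgeR adjusted p 0.233) and Tsc22d3 at -1.50 (adjusted p 0.361), and 1 gene of the whole table passed. At an unadjusted p under 0.05, 3078 genes of the whole table and 3 of the 8 members did. No day 2 library was on the high side. With the 7 day 4 libraries fitted alone, Nr3c1 was at -0.80 (edgeR adjusted p 0.0623) and Tsc22d3 at -1.60 (adjusted p 0.117), and 2 of the 8 members had an unadjusted p under 0.05.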

How the data were processed

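RNA-seq of 22 libraries of sorted mouse skin fibroblasts was analysed. The authors deposited 1 table of raw read counts per gene and library, with Ensembl identifiers and, of its columns, 0 of no labelled sample. The submitters' processing notes name Trimmomatic and the build mm39. The aligner, the counter, the annotation release and strandedness are not given in the sources used here, so reads of genes overlapping on opposite strands may be mixed. Symbols came from GENCODE M21, which named 52081 of 55414 identifiers, and no mm39 coordinates are printed.

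Genes were kept by filterByExpr (minimum count 10), scaled by TMM and tested with edgeR 4.0.16 in R 4.3.3 (robust quasi-likelihood fit to all 22 libraries, 1 mean per group, 16 residual degrees of freedom). P-values were adjusted by Benjamini-Hochberg over 17554 genes, with a threshold of 0.05. The SE is the log2 fold change divided by the square root of F. Log2 CPM used a prior count of 2. No replicate pair agreed within counting error (chi-square divided by its degrees of freedom was 26.7 to 403). On simulated day 1 data of 17162 genes, the test recovered 31.3% of the 2-fold and 65% of the 4-fold changes, with 3 false calls of 99. Only 99 genes were changed 2-fold and 100 genes 4-fold, each gene drawn independently and without the library split. In the real day 1 data 5017 genes passed, so these rates need not hold there. A simulated day 2 without changes gave 0 calls.

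The members and lists were chosen with earlier results of these data known. All members are named, and from each list up to 3 called genes per direction and day by smallest p, with the 3 genes most correlated with each member. The other day 4 genes of the list of glucocorticoid-induced genes were named after their values were seen. Promoter windows came from RefSeq (GRCm38.p6), which had no entry used here for Zbtb16; Nr3c1 was not searched. Alternatives were library totals, DESeq2 1.42.0 as test or for size factors, no filter, a replicate block, the library split as a covariate, each day alone, and leaving out each library.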

Additional observations from a re-analysis of the deposited data

Results flagged for a closer look

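Hsd11b1 in CTRL replicate 4 of day 1 stood apart from its group, at 215 CPM against 133 to 144 CPM in the other 3 libraries. The split described in the report also set this library apart from the other 3. Without it the day 1 log2 fold change of Hsd11b1 was 1.16. In CTRL replicate 1 of day 4 the endothelial markers summed to 9.48 CPM against 4.16 to 4.85 CPM in the other 3 libraries, and the adipocyte markers to 2.81 CPM against 0.335 to 0.515 CPM. Of 57 groups of values examined in this way 3 had such a library, where chance alone would give about 2.85.

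The EXP effect on the metallothioneins differed between days, with an edgeR adjusted p of 0.0373 for Mt1 and 0.00257 for Mt2. The log2 fold changes of Mt1 were 0.77, -0.81 and -0.49 on days 1, 2 and 4, and those of Mt2 were 1.19, -0.65 and -0.65. Between CTRL groups the mean of Mt2 was 279.8 ± 64.2 CPM (SD, n = 4) on day 1 and 492 ± 59.9 CPM (SD, n = 3) on day 2. In the EXP groups it was 637 ± 156 CPM (SD, n = 5) and 313 ± 77.7 CPM (SD, n = 3).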

How the results depend on the processing

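No member reversed its log2 fold change under any alternative or without any library. Hsd11b1 on days 1 and 2 and Mt2 on day 1 passed throughout. With library totals in place of TMM, 4632 genes and 2 members (Hsd11b1, Sgk1) passed on day 2, 4 members on day 4 (Hsd11b1 and Sgk1 added) and 163 genes over days within CTRL; 66.2%, 90.5% and 80.8% of the calls on days 1, 2 and 4 were then higher in EXP. Nr3c1 on day 1 was then -0.25 (edgeR adjusted p 0.195) and Hsd11b1 on day 4 0.82 (adjusted p 0.0150). With TMM 2441 rose and 2576 fell on day 1, 1356 and 1003 on day 2, and 2248 and 1695 on day 4. Without the filter on low counts 3 members passed on day 1 (Hsd11b1, Zbtb16 and Mt2) and 1 on day 4 (Nr3c1). DESeq2 called 2609 genes for the day-dependent effect, 525 over days within CTRL and 4 members within EXP (Fkbp5 and Mt1 added). Adding the split as a term left 29 genes and 0 members within CTRL (2307 and 2 at an unadjusted p under 0.05). Each day fitted alone gave 4 members on day 2 (Tsc22d3, Mt1 and Mt2 added), and 1072 genes and 0 members on day 4. Within the high side of the split 2143 genes and 3 members passed on day 1, and within the low side 1 gene and 0 members on day 4.

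Leaving out 1 library gave 4025 to 4813 genes and 4 to 6 members on day 1, 921 to 2249 and 1 to 2 on day 2, 1755 to 4990 and 1 to 4 on day 4, 895 to 2617 and 1 to 3 for the day-dependent effect, 5 to 92 and 0 to 1 within CTRL, and 1374 to 3330 and 1 to 4 within EXP. The cause of these changes was not tested.

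Same-numbered libraries did not pair on every day. The correlation of their deviations was -0.07 to 0.16 on day 1, -0.06 to -0.003 on day 2 and 0.08 to 0.15 on day 4, and 2 of 4, 0 of 3 and 3 of 3 EXP libraries correlated best with their own number. With the replicate block, the day-dependent effect was called for 401 genes and for 1 member, Mt2 (Mt1 adjusted p 0.0846), and Mt1 on day 1 had an adjusted p of 0.0575. For changes over days within an arm no block was fitted, since a number does not link libraries of different days.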
